A study of Mus musculus with 6 samples.

Results

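Primitive endoderm markers are genes switched on in the extraembryonic endoderm layer that forms beside the epiblast in the mouse blastocyst. The 10 markers examined here were Gata4, Gata6, Foxa1, Foxa2, Hnf4a, Pdgfra, Dab2, Cubn, Amn and Sparc. They were found on mouse Affymetrix GeneChip arrays as the probe sets whose platform annotation gave a single gene symbol, and all 10 had at least 1. Together they had 24 probe sets, and each gene was represented by the one with the highest mean over 6 arrays, as were all 18193 genes of the table. The rule names the genes and sets no threshold on their values.

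The arrays compared 3 haploid with 3 diploid embryonic stem (ES) cell samples, 1 array each, all grown in 2i medium, which blocks the kinases MEK and GSK3, with RNA taken on day 2 after a passage. The haploid lines were HAP1 at passage 24 and HAP2 at passage 21, both of strain F1 CBAxB6, and HTG1 at passage 11, labelled as mixed transgenic with no transgene named. The diploid samples were male ES cells of strain 129Sv (diploid 1 and 2) or 129 (diploid 3), with a replicate number but no line name. Whether they are separate lines is therefore not known. Strain differed together with ploidy, and so did the labelled sex where it was given, so these cannot be told apart from ploidy, and the labels give neither a passage for the diploid cells nor how many cells had kept one chromosome set. The median log2 value of all probe sets was 6.31 to 6.33 on every array. All 10 ES cell identity markers checked, such as Pou5f1, Nanog and Sox2, lay above the array median on all 6 arrays, as the label of the cells calls for. The p-values measure the spread between these arrays, and their number limits the precision.

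In the blastocyst, cells of the inner cell mass choose between epiblast and primitive endoderm. FGF signalling through ERK favours primitive endoderm, where GATA factors are switched on and Nanog is switched off, and ES cells kept without this signal stay on the epiblast side. Primitive endoderm later gives visceral endoderm, an absorbing epithelium that takes up maternal proteins through cubilin, amnionless and the adaptor Dab2, and parietal endoderm, which secretes a thick basement membrane rich in laminin, collagen IV and the glycoprotein Sparc.

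For both members that passed the test between haploid and diploid cells, Amn and Hnf4a, the region around the transcription start is shown, since these are the sequences that lie beside the differences. They are RefSeq promoters of build GRCm38.p6, from 250 bases before to 50 bases after a start, and 8 of the 10 members had at least 1 entry. Capitals mark the GATA words (AGATAA or AGATAG or TGATAA or TGATAG), the box named CCAAT after its letters, and the GC box (GGGCGG), each on either strand. The Amn promoter lies at chr12:111270846-111271145 on the plus strand, and Hnf4a has an upstream start, chr2:163506607-163506906, and a downstream start, chr2:163546905-163547204, both on the plus strand.
Amn: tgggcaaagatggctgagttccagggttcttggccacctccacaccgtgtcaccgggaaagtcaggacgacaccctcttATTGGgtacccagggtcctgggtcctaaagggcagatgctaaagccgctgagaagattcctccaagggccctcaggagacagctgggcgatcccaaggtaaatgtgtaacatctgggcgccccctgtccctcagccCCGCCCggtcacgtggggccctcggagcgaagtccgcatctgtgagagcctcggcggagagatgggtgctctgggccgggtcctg
Hnf4a upstream start: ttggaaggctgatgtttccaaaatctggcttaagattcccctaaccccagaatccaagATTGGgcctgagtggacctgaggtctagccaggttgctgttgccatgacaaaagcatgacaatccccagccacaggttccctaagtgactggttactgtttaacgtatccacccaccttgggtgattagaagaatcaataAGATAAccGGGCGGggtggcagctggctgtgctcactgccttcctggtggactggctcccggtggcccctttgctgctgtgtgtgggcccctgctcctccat
Hnf4a downstream start: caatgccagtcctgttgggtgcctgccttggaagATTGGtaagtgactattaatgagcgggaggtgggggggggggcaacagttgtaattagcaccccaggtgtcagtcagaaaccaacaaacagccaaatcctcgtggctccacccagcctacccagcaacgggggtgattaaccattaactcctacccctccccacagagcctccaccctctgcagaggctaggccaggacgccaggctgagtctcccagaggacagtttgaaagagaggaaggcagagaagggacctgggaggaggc
The upstream Hnf4a window held 1 GATA word, 1 CCAAT box and 1 GC box, the downstream window 1 CCAAT box alone, and the Amn window 1 CCAAT box and 1 GC box but no GATA word. Of 32851 promoters of the same length, 29.8% held a GATA word, 37.4% a CCAAT box and 35.7% a GC box. The Amn window had 15 CG dinucleotides and each Hnf4a window 4, against a median of 7 over all promoters. These matches describe letters in a window and were not tested against the expression values.

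Most markers lay in the lower part of the array. Hnf4a and Sparc were above the array median on all 6 arrays, Amn was above it on the 3 haploid arrays and below it on the 3 diploid arrays, and the other 7 were below it on every array. Over all 18193 genes, 60.0% lay above the median on all 6 arrays, since each gene stands by its brightest probe set. Of all 24 probe sets, 5 were above the median on every array (2 of Hnf4a and 3 of Sparc) and 18 were below it on every array. A value compared with the array median places the signal of a probe set, and probe sets differ in how well they bind, so it gives no order of transcript amounts between genes.

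**Figure D1:**
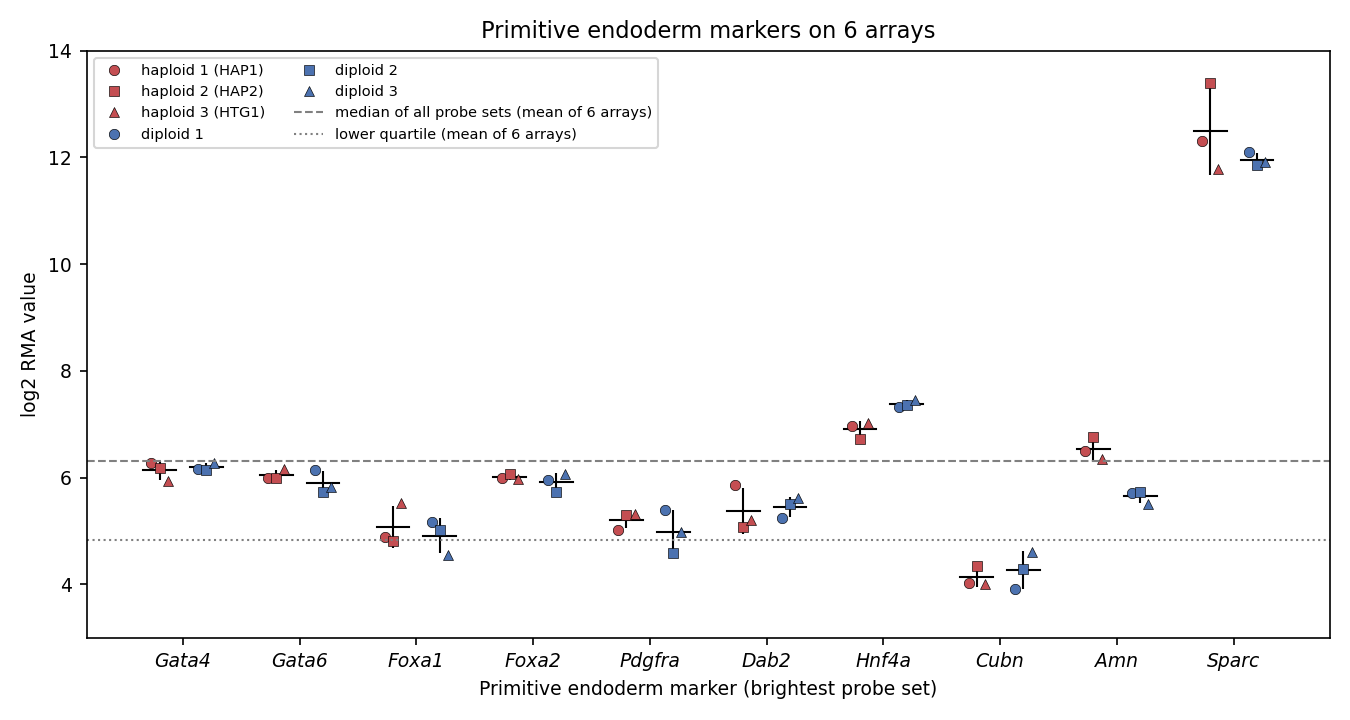
Log2 RMA value (y axis) of each primitive endoderm marker (x axis) on the 3 haploid (red) and 3 diploid (blue) arrays, 1 symbol per array, with the group mean (horizontal bar) and SD (vertical bar). The dashed and dotted lines give the median and the lower quartile of all probe sets. Sparc stands far above the median, Hnf4a just above it, and Amn on either side of it by group, while the other 7 markers lie below it.

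Of the 10 markers, 1 was higher (Amn) and 1 lower (Hnf4a) in haploid cells at an adjusted p of 0.05 in limma, against 14.9% of all genes called in either direction (7.92% higher and 6.96% lower), so the members' share, 20% of 10 genes, was near the background. Groups did not overlap for 2 members, Amn and Hnf4a, against 37.9% of all genes (17.7% higher and 20.2% lower in haploid cells). The median difference of the members was 0.12 (log2, haploid minus diploid), beside -0.03 over all genes. For the 8 members that did not pass, the range within 1 of the groups was larger than the difference between the groups. Among all genes 1441 were higher and 1266 lower, and with each chromosome's own shift subtracted 1150 were higher and 1552 lower. With quantile normalization repeated 1234 were higher and 1457 lower, so the balance of directions depended on scaling too. The upper quartile of all probe sets was 8.55 to 8.61 on haploid and 8.49 to 8.51 on diploid arrays.

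**Figure D2:**
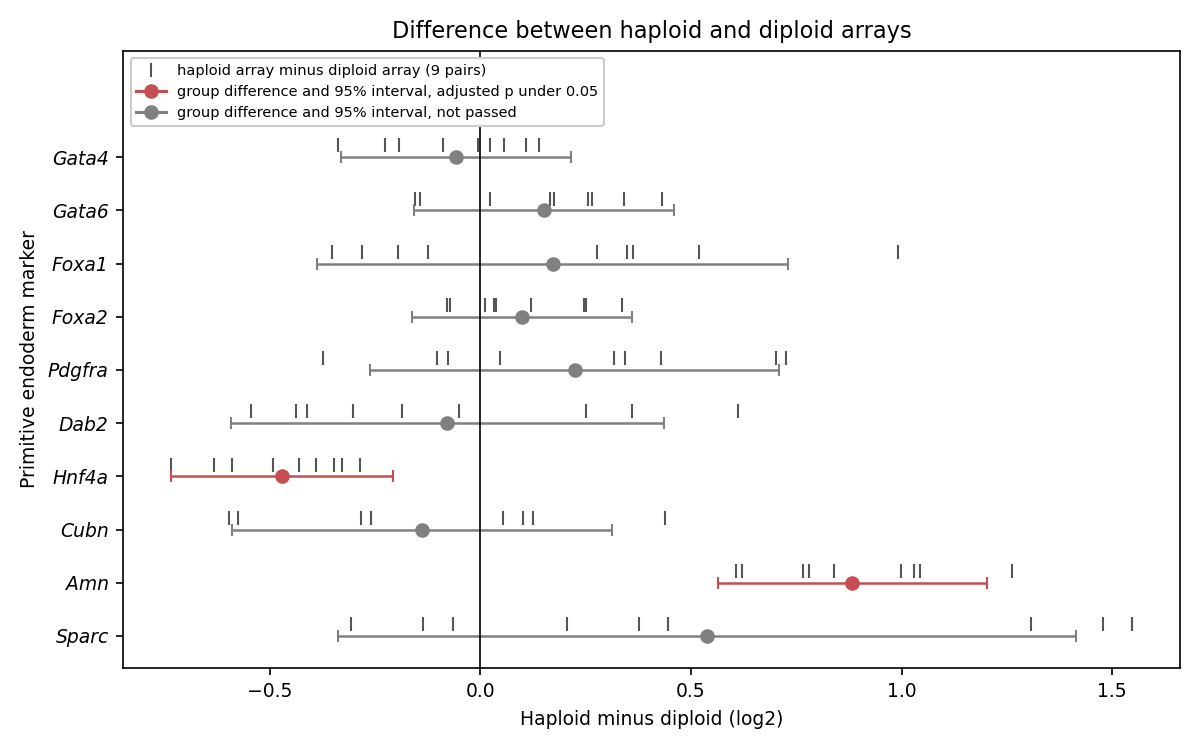
Haploid minus diploid difference (x axis, log2) of each marker (y axis). Circles and bars give the group difference with its 95% interval from limma, red where the adjusted p was under 0.05, and ticks give the 9 differences between single haploid and single diploid arrays. All 9 ticks lie above 0 for Amn and below 0 for Hnf4a, and those of the other 8 markers fall on both sides.

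Amn, or amnionless, is the membrane protein that carries cubilin to the cell surface. Its log2 value was 6.50 in HAP1, 6.76 in HAP2 and 6.34 in HTG1, against 5.72, 5.73 and 5.50 in diploid 1, 2 and 3. Every haploid value was above every diploid one, by 0.61 to 1.26 over the 9 pairs of arrays. Amn was 1.84-fold higher in haploid cells (log2 difference 0.88 ± 0.14, SE, n = 3 per group, limma adjusted p = 0.00841). It lay at the 50.4th to 56.3rd percentile of the array in haploid cells and at the 36.1st to 40.2nd in diploid cells. The difference passed without any 1 of the arrays, at 0.77 to 0.98. Amn had 1 probe set, so no second measurement of the gene stood beside it.

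Cubn, or cubilin, the large receptor that Amn anchors, was dim on all arrays, below the lower quartile of each. Its values were 4.04, 4.35 and 4.01 in HAP1, HAP2 and HTG1, against 3.91, 4.29 and 4.61 in the diploid samples, so the groups overlapped. The difference was -0.14 (95% interval -0.59 to 0.31, limma adjusted p = 0.66). Its second probe set, at 4.09 to 4.16 in haploid and 4.08 to 4.26 in diploid cells, overlapped too. The difference of Amn stood beside a Cubn signal near the floor of the array in both groups.

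Dab2, a clathrin adaptor that carries cubilin and megalin into the cell, had values of 5.86 in HAP1, 5.07 in HAP2 and 5.20 in HTG1, against 5.25, 5.50 and 5.61 in the diploid samples. The highest and the lowest of the 6 values were both haploid. The difference was -0.08 (95% interval -0.59 to 0.44, limma adjusted p = 0.837), and all 4 of its probe sets were below the array median on every array, with differences of -0.14 to -0.06.

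Among the partners of this uptake complex, 4 of 11 measured genes were higher and 3 lower in haploid cells, with a median difference of -0.15. Over all genes 7.92% were higher and 6.96% lower, and the list was chosen with earlier results of these data known. Megalin, Lrp2, the large receptor that works with cubilin, was lower, at 5.36, 5.0 and 5.24 in HAP1, HAP2 and HTG1 against 6.21, 6.87 and 6.29 in diploid 1, 2 and 3 (log2 difference -1.26 ± 0.19, SE, limma adjusted p = 0.00842). Its 3 probe sets differed by -1.26 to -0.12, and with their mean Lrp2 differed by -0.67. Lrp2 was above the array median on 1 array, diploid 2. The Lrp2 chaperone Lrpap1 was higher by 0.78, but averaging its 4 probe sets ended the call (0.61, limma adjusted p = 0.0681), and the secreted ligand clusterin, Clu, was lower by 1.05 on the log2 scale. Of the AP-2 adaptor subunits, which link cargo to clathrin, Ap2a1 was higher by 0.56 and Ap2m1 by 0.41, and Ap2b1 was lower by 0.47 on the log2 scale. The early endosome GTPase Rab5a was higher by 0.35. Ap2m1 and Rab5a did not pass without any 1 of the arrays (limma adjusted p = 0.058 to 0.139 and 0.0689 to 0.132), and Ap2b1 did not pass without HAP2, diploid 2 or diploid 3 (0.0612 to 0.0717) and differed by -0.24 when its probe sets were averaged and by -0.20 with chromosome shifts subtracted. Amn and Lrp2 differed in opposite directions, while Cubn and Dab2 did not pass.

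Hnf4a, a nuclear receptor of visceral endoderm and liver, had values of 6.97 in HAP1, 6.73 in HAP2 and 7.03 in HTG1, against 7.32, 7.36 and 7.46 in diploid 1, 2 and 3. All haploid values were below all diploid ones, by 0.29 to 0.73. Hnf4a was 1.38-fold lower in haploid cells (log2 difference -0.47 ± 0.11, SE, n = 3 per group, limma adjusted p = 0.0341). All 4 probe sets were lower in haploid cells, by 0.25 to 0.47 on the log2 scale, and the groups were separate for 1 of them. The call ended without HAP1 (limma adjusted p = 0.0567), without HAP2 (0.0935) and without diploid 1 (0.0549), diploid 2 (0.0952) or diploid 3 (0.121), and held without HTG1 (0.0423). With the brightest probe set whose name marks no shared match, the difference was -0.25 (limma adjusted p = 0.254).

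**Figure D3:**
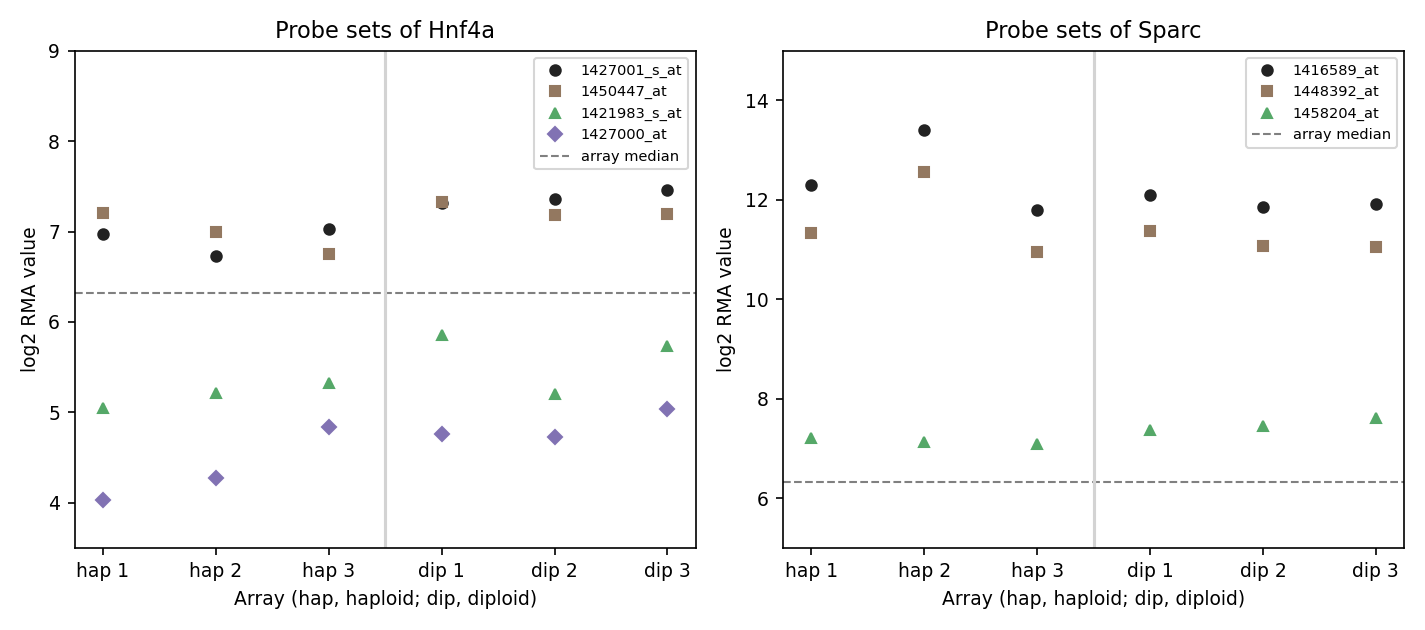
Log2 RMA value (y axis) of every probe set of Hnf4a (left) and Sparc (right) on each array (x axis, haploid then diploid), with the array median as a dashed line. The 2 brightest Sparc probe sets peak in haploid 2 (HAP2), at 13.4 and 12.6, and the third does not, while the 4 Hnf4a probe sets have lower means in haploid cells, with groups that overlap in 3 of them.

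Sparc, a secreted glycoprotein that binds collagen and is abundant in parietal endoderm, was the bright member. Its value was 12.30 in HAP1, 13.40 in HAP2 and 11.79 in HTG1, against 12.09, 11.85 and 11.92 in the diploid samples. HAP2 was the highest array and HTG1 the lowest, with the diploid samples between HTG1 and HAP1, so the groups overlapped. Sparc was 2.15-fold higher in HAP2 than in HAP1 and 3.06-fold higher than in HTG1. The SD among the haploid lines was 0.82, larger than that of 98.3% of genes, and 0.12 among the diploid samples. Since the diploid samples may not be separate lines, these SDs may not measure the same kind of spread. The group difference was 0.54 ± 0.37 (SE, 95% interval -0.34 to 1.41, limma adjusted p = 0.364), and without HAP2 it was 0.09.

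The second Sparc probe set gave the same picture, with 12.56 in HAP2 and 10.95 to 11.38 on the other 5 arrays. The third was dimmer, at 7.21, 7.14 and 7.08 in HAP1, HAP2 and HTG1 against 7.37, 7.46 and 7.61 in diploid cells, with no peak in HAP2. It ran in the opposite direction, with all haploid values below all diploid ones, but did not pass over all probe sets (difference -0.34 ± 0.10, limma adjusted p = 0.0765). Sparc lies on chromosome 11, whose genes were shifted by -0.27 in haploid cells, and with that shift subtracted Sparc differed by 0.81 (limma adjusted p = 0.169). Fibroblasts also express Sparc. Of 14 fibroblast or feeder markers 3 were lower (Col1a2, Tagln and Acta2) and none higher in haploid cells. Over all genes 6.96% were lower and 7.92% higher. Fbln2, Twist1 and Loxl1 had higher haploid means, by 0.68, 0.48 and 0.32, and did not pass. The 3 probe sets of Col1a2 differed by -2.86 to -0.18. The list's summed linear signal was 1088 to 1381 in haploid cells against 2117 to 3323 in diploid cells. In diploid cells the 3 called genes had the highest means of the list, at 8.67 to 9.17, so they weigh most in that sum. Groups did not overlap for 7 of the 14, all lower in haploid cells, against 20.2% of all genes not overlapping and lower. Of the 14, 2 were below the array median on every array. Acta2 differed by -2.04, or by -0.46 without probe sets whose names mark shared matches (limma adjusted p = 0.101). The part of other cell types in the Sparc signal was not tested, and in RNA from whole cultures fewer cells of a type and less RNA per cell cannot be told apart.

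Gata4 and Gata6, the zinc finger factors that can drive ES cells into primitive endoderm, were below the array median on all arrays. Gata4 stood at 6.28, 6.19 and 5.94 in HAP1, HAP2 and HTG1, against 6.17, 6.14 and 6.28 in diploid 1, 2 and 3. The lowest Gata4 value was that of HTG1, and the difference was -0.06 (95% interval -0.33 to 0.22, limma adjusted p = 0.77). Gata6 stood at 6.0, 5.99 and 6.17 in the haploid lines, against 6.14, 5.74 and 5.83 in the diploid samples. Diploid 1 lay within the haploid range of Gata6, and the difference was 0.15 (95% interval -0.16 to 0.46, limma adjusted p = 0.472). A second Gata6 probe set, nearly as bright, read 6.07, 6.13 and 6.07 in haploid cells against 5.41, 5.87 and 5.67 in diploid cells. Its groups did not overlap, and the difference of 0.44 ± 0.13 did not pass over all probe sets (limma adjusted p = 0.0755). The third differed by 0.08. Of all 24 member probe sets 4 had separate groups, against 34.6% of all probe sets, and 2 passed, against 11.3%.

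Foxa1 and Foxa2, forkhead factors of endoderm, were also dim. Foxa1 stood at 4.89 in HAP1, 4.82 in HAP2 and 5.53 in HTG1, against 5.17, 5.02 and 4.54 in the diploid samples. HTG1 was the highest and diploid 3 the lowest, HAP1 and HAP2 lay between diploid 3 and diploid 2, and the difference was 0.17 (95% interval -0.39 to 0.73, limma adjusted p = 0.66). Foxa2 stood at 5.99, 6.07 and 5.98 in the haploid lines, against 5.95, 5.74 and 6.06 in the diploid samples. Its haploid values were close to each other (SD 0.05) and within the range of the diploid ones but for HAP2, with a difference of 0.10 (95% interval -0.16 to 0.36, limma adjusted p = 0.581).

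Pdgfra, the PDGF receptor used to mark and sort primitive endoderm, stood at 5.03, 5.30 and 5.32 in HAP1, HAP2 and HTG1, against 5.40, 4.60 and 4.98 in diploid 1, 2 and 3. Diploid 1 was the highest array and diploid 2 the lowest. The difference was 0.22 (95% interval -0.26 to 0.71, limma adjusted p = 0.495), and its 3 probe sets differed by 0.02 to 0.46 and lay below the median throughout. Its ligand Pdgfa was bright and higher in haploid cells, at 11.07, 11.38 and 11.92 against 10.42, 10.58 and 10.79 in diploid cells (log2 difference 0.86, limma adjusted p = 0.0424). Pdgfa still passed without HAP1, but the omission of HAP2, HTG1 or any diploid array ended the call (limma adjusted p = 0.0558 to 0.117), as did averaging its probe sets (0.0526) and the subtraction of chromosome shifts (0.0537). Of the 5 PDGF genes measured beside the receptor no other passed, and their median difference was -0.19.

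The lines did not share an order over the members. HTG1 differed from the mean of HAP1 and HAP2 by -1.06 for Sparc, 0.68 for Foxa1, -0.29 for Gata4, -0.29 for Amn and -0.26 for Dab2, and by at most 0.18 in size for the other 5. Diploid 1 differed from the mean of diploid 2 and 3 by 0.61 for Pdgfra, -0.54 for Cubn, 0.39 for Foxa1, 0.36 for Gata6, -0.31 for Dab2 and 0.21 for Sparc, and by at most 0.10 in size for the other 4. With 1 array on one side these differences have no test.

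Further genes of the same lineages were counted in lists. Beside each count stand the shares over all genes, 7.92% higher and 6.96% lower in haploid cells. Of 8 other transcription factors of extraembryonic endoderm, 1 was lower (Foxa3, a relative of Foxa1 and Foxa2, by 0.56 on the log2 scale) and none higher, with a median difference of 0.02. Foxa3 did not pass without HAP2 (limma adjusted p = 0.0563), HTG1 (0.0515) or diploid 3 (0.0721), and it lay below the array median on every array. Of 22 visceral endoderm genes 2 were higher and 2 lower, with a median of -0.04. The coactivator Cited1 was higher by 2.38 (limma adjusted p = 0.000448), with 8.55 to 8.76 in haploid and 6.14 to 6.45 in diploid cells. It is X-linked, where genes were shifted by 0.77, and with that shift subtracted Cited1 differed by 1.61 and still passed. The retinol carrier Rbp4 was lower by 0.91 on the log2 scale, and Lrp2 was lower too (-1.26). The lipid carrier Apoe was higher by 0.72, which held without HAP1 but was lost without each of the other 5 arrays (limma adjusted p = 0.0663 to 0.0894) and with chromosome shifts subtracted (limma adjusted p = 0.0506). Of 24 parietal endoderm and basement membrane genes 2 were higher and 4 lower, with a median of -0.17. The collagen chaperone Serpinh1 was higher by 2.08 and the mucin-like Pdpn by 1.36, and the simple keratin Krt8 was lower by 2.21, with 7.94 to 8.71 in haploid and 10.20 to 11.05 in diploid cells. The laminin chain Lama1, the collagen IV chain Col4a1 and the keratin Krt18 were lower by 0.97, 1.08 and 1.23 on the log2 scale. Col4a1 lies on chromosome 8, whose genes were shifted by -0.33, and with that shift subtracted Col4a1 differed by -0.75. Without 1 array Lama1 did not pass in 4 of the 6 fits (without HAP2 or any diploid array, limma adjusted p = 0.0842 to 0.107), Krt18 in 5 (all but without HAP1, 0.0539 to 0.112) and Col4a1 in 1 (without diploid 2, 0.0564). Within the haploid lines HAP2, where Sparc was highest, was the highest for 11 and the lowest for 8 of these 24 genes, with Sparc not among them.

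**Figure D4:**
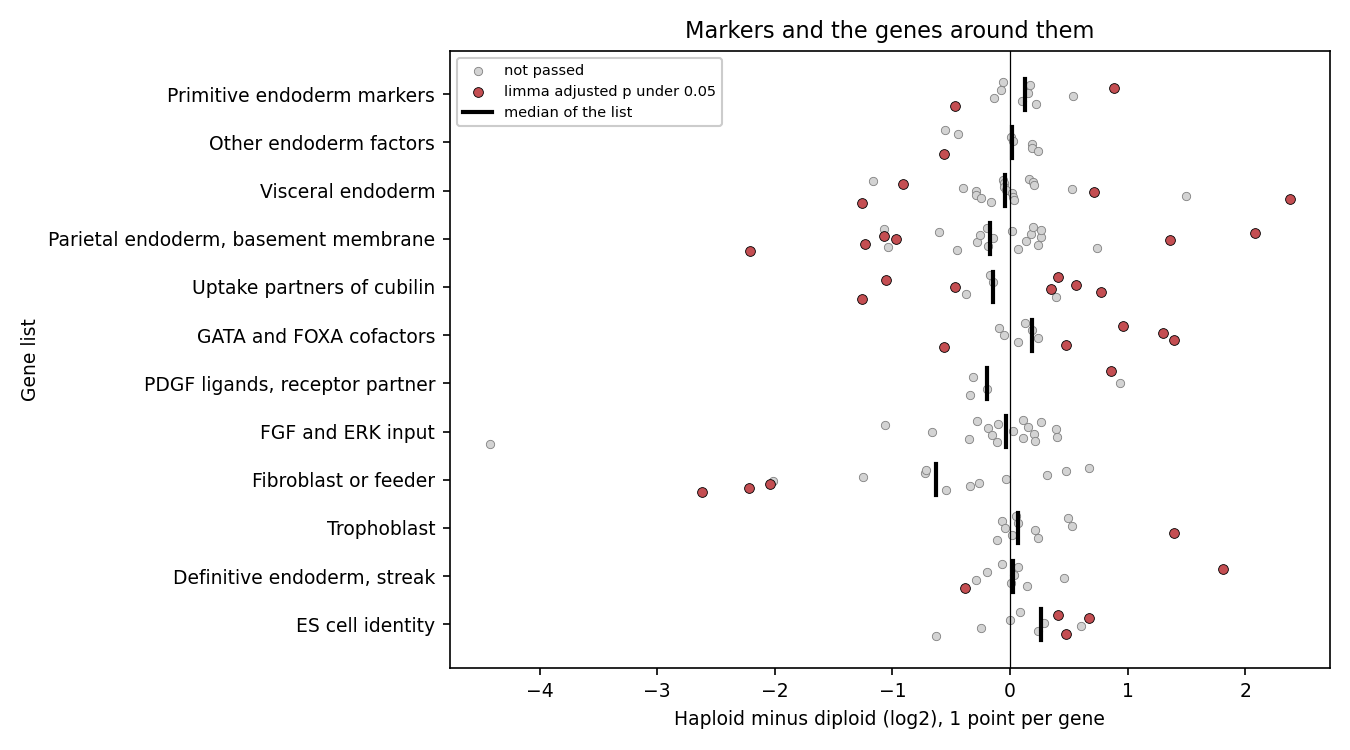
Haploid minus diploid difference (x axis, log2) of the genes of each list (y axis), 1 point per gene, red where the limma adjusted p was under 0.05, with the list's median as a black bar. The markers have 1 red point on each side of 0, and the medians of the endoderm lists lie between -0.17 and 0.12.

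Genes that act on these markers gave the following counts, against 7.92% higher and 6.96% lower in haploid cells over all genes. Of 18 measured genes of the FGF and ERK route, none passed in limma over all genes and 3 had an unadjusted p under 0.05, with a median of -0.03. The ligand Fgf4 was bright, at a mean of 12.4 in haploid and 12.0 in diploid cells, and its difference of 0.40 missed the threshold (limma adjusted p = 0.0528). It passed under 3 of 15 alternatives and in none of the 6 fits that left out 1 array (limma adjusted p = 0.0507 to 0.162). Its 4 probe sets differed by -0.81 to 0.65, and averaged they differed by 0.15 (limma adjusted p = 0.384). In a list of 11 cofactors and relatives of the GATA and FOXA factors, which also held Nanog and Sall4, 4 were higher and 1 lower. The GATA factors Gata2 and Gata3, known from blood and trophoblast, were higher by 1.30 and 1.40, and the GATA cofactor Zfpm1 by 0.96, which did not pass without HAP2 (limma adjusted p = 0.0506) or diploid 2 (0.0628). The 1 lower gene was Foxa3. The difference of Gata3 did not pass without diploid 3 (1.36, limma adjusted p = 0.0765). Gata3 was dim, at 5.72 to 6.63 in haploid and 4.46 to 5.22 in diploid cells, and above the array median on 1 array. Gata2 was above it on all 6 arrays. Nanog, which opposes Gata6, was higher by 0.47 (limma adjusted p = 0.0227), but not without HAP2, HTG1, diploid 2 or diploid 3 (0.0522 to 0.0906). Nanog was 1 of 3 higher genes among the 10 ES cell identity markers, of which none was lower and the median was 0.26. The others were Klf4, by 0.68, and Pou5f1, by 0.40. Klf4 passed under all 15 alternatives, and Pou5f1 in 1 of the 6 fits that left out 1 array. Gata3 was also the 1 of 11 trophoblast markers that passed. Of 10 definitive endoderm and streak markers Gsc was higher by 1.82 and Tbx6 lower by 0.38. Tbx6 lay below the array median on every array and passed in none of the fits that left out 1 array (limma adjusted p = 0.0679 to 0.149).

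The genes whose profile over the 6 arrays was closest to each called marker were found among 9096 genes above the median level, by the root mean square difference of values centred on the gene's mean. A gene chosen in this way has a difference close to the marker's own by that choice, so its difference is no further result. For Hnf4a they were Camta2 (0.031) and Dip2b (0.038). For Amn they were Magt1 (0.063) and Chic1 (0.066), both X-linked, whereas Amn lies on chromosome 12. Genes of the X were shifted by 0.77 in haploid cells and those of chromosome 12 by 0.10. With these shifts subtracted Magt1 differed by 0.14 and Chic1 by 0.17, and neither passed. Amn differed by 0.79 (limma adjusted p = 0.0123). This contrast follows from the size of the shifts subtracted and is no further result either. The 3 probe sets of Chic1 differed by -0.07 to 1.03.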

How the data were processed

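RNA of 6 ES cell samples was labelled with biotin and hybridised to Affymetrix arrays, per the labels' protocols. The authors deposited log2 values per probe set, and the submitters' processing notes name RMA, with its version and settings absent from the sources used here. RMA sets arrays to a common distribution, so changes in total RNA cannot be seen, and it compresses differences of dim genes.

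Of 45101 probe sets, 64 controls were left out. The platform annotation gave 34945 probe sets 1 symbol, 932 several and 9160 none, and those with 1 were used. The test of haploid against diploid was limma (version 3.58.1, R version 4.3.3), two-sided, with lmFit and eBayes, no covariate and no filter, and Benjamini-Hochberg adjustment over 18193 genes at 0.05, or over all probe sets where so stated. Intervals are limma's 95% intervals and are not adjusted. The limma fit was tested on simulated data, and the other steps were not.

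Named genes were all members with their probe sets, up to 4 called genes of each list with the largest change (the 2 of highest mean where none was called), and the 2 closest profiles of each called member, not all of which are described. Genes outside this rule were chosen after their values were seen. They were Lama1, Col4a1, Ap2m1, Ap2b1, Rab5a, Apoc2, Egr1, Spry1, Spry2, Spry4, Dusp6, Etv4, Sox2, Fbln2, Loxl1 and Twist1. The members and lists were chosen with earlier results of these data known. Alternatives were scaling, probe set choice, dim genes, variance model, array weights, chromosome shifts and each array left out.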

Additional observations from a re-analysis of the deposited data

How the results depend on the processing

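Amn passed in limma under all 14 alternatives that kept it, at 0.77 to 0.98 (log2), and Hnf4a under 8 of 14, at -0.55 to -0.25. The number of members called was 2 on all arrays and 1 to 2 with 1 array left out. It was 1 without probe sets whose names mark shared matches, and 0 among genes above the median level, where Sparc was the only member left. The count of all genes called was 2707, 970 to 2428 with 1 array left out, and 5098 with every probe set on its own, where 45037 probe sets were tested. It was 1429 without HAP2, 1196 without diploid 2 and 970 without diploid 3. Members above the median on all arrays numbered 2, but 1 (Sparc) against the median of the gene representatives and 1 when probe sets were averaged. With 1 array left out, uncalled members changed sign, Gata4 between -0.13 and 0.039, Foxa1 between -0.054 and 0.30, Dab2 between -0.32 and 0.077 and Cubn between -0.32 and 0.030, while none passed. No paired analysis was possible because the haploid titles name lines and give no replicate number. The dim markers lie where arrays separate signal from background least.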

Other observations

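Apoc2, an apolipoprotein of visceral endoderm and liver singled out after its values were seen, was high in HAP2 like Sparc. It stood at 5.17 in HAP1, 9.38 in HAP2 and 6.51 in HTG1, against 5.53, 5.49 and 5.54 in the diploid samples, and the difference of 1.50 did not pass (limma adjusted p = 0.32). Without HAP2 it was 0.32 (limma adjusted p = 0.63), and without HAP1 2.42 (0.0859).

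Egr1, an immediate early gene that ERK signalling induces, singled out in the same way, was low in diploid 1 and high in diploid 2 and 3. It stood at 6.06, 5.76 and 5.95 in HAP1, HAP2 and HTG1, against 6.28 in diploid 1, 11.96 in diploid 2 and 12.81 in diploid 3, with a difference of -4.42 (limma adjusted p = 0.101). With 1 array left out the difference was -6.46 to -3.19 (limma adjusted p = 0.00151 to 0.266), and it passed under 2 of 15 alternatives, without diploid 1, the diploid array nearest the haploid values, and with array weights. Spry1, Spry2, Spry4, Dusp6, Etv4 and Etv5, other genes that ERK signalling induces, did not show a split of this size in diploid cells. In diploid 1, 2 and 3, Spry1 stood at 8.21, 8.44 and 8.67 and Spry2 at 9.31, 9.42 and 9.42. Dusp6 stood at 8.16, 8.68 and 8.66 and Etv5 at 11.91, 12.35 and 12.38. Spry4 stood at 6.64, 6.53 and 6.87 and Etv4 at 8.50, 7.42 and 8.08. Diploid 1 was the lowest diploid sample for Spry1, Spry2, Dusp6 and Etv5, and not for Spry4 and Etv4. Dusp6 read 7.20, 5.98 and 9.13 in HAP1, HAP2 and HTG1, and Etv5 12.43, 12.51 and 12.88. The group difference of Etv5 was 0.39, opposite in sign to that of Egr1, and did not pass (limma adjusted p = 0.178). It passed under 1 of 15 alternatives, the mean of its 3 probe sets (0.59, limma adjusted p = 0.0478). ERK activity was not tested. Gata4, Gata6, Foxa1, Foxa2, Pdgfra, Dab2 and Cubn were below the array median on all of these arrays.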
